A study of Mus musculus with 6 samples.

Results

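Collagens are extracellular proteins built as trimers of chains that carry long runs of glycine-led repeats, and each chain has its own gene. The collagen genes were taken as every symbol in the deposited tables that reads Col, a number, the letter a and a number, which gave 44 genes of 55363 symbols. By the class of trimer they build, 11 are fibrillar, 6 encode the type IV chains of basement membranes, and 27 belong to other classes. Depth, read from steps in the lowest values, was about 16700000 to 17800000 fragments per library.

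The libraries came from whole oviducts of pregnant mice, mated at 6 to 8 weeks of age and killed on gestational day 3, with the day of the vaginal plug as day 1. Of these, 3 were labelled Mettl3 d/d, where d marks the deleted allele in the usual notation, and 3 were labelled Mettl3 f/f, where f marks an allele flanked by loxP sites. The sources used here do not give the Cre driver or the deleted exons, nor say that the libraries of a group came from separate animals, and p-values then rest on a spread between libraries that may be technical. Mettl3, the catalytic subunit of the enzyme that methylates adenosine in RNA, was at 19.8, 20.3 and 24.5 FPKM (mapped fragments scaled by transcript length and library size) in the d/d libraries and at 11.8, 12.1 and 13.2 FPKM in the f/f libraries (limma adjusted p = 0.0145, and 0.0688 without f/f replicate 2). A value per gene cannot show a missing exon, so the genotype was not verified, and d/d and f/f below name the labels only.

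Fibrillar collagens, chiefly types I, III and V, form the fibrils of the stroma and of the muscle coat that surround the oviduct epithelium. Type IV collagen forms the sheet on which epithelial cells, smooth muscle cells and blood vessels rest. Its Col4a1 and Col4a2 products assemble with each other in nearly all basement membranes, whereas the products of Col4a3, Col4a4, Col4a5 and Col4a6 build trimers found in fewer tissues. The remaining classes decorate fibrils (the FACIT group), form beaded filaments (type VI), anchor epithelia (type VII), build short-chain networks (types VIII and X), sit at basement membrane zones (the multiplexins, types XV and XVIII) or span the cell membrane.

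The type IV genes lie in head-to-head pairs, each pair opening in opposite directions from a stretch of shared DNA. On GRCm38 the annotated starts of Col4a1 (chromosome 8, 11198423 to 11312826, minus strand) and Col4a2 (chromosome 8, 11312805 to 11449287, plus strand) are 21 bases apart, with 22 bases common to both genes. Those of Col4a4 (chromosome 1, 82448423 to 82586849, minus strand) and Col4a3 (chromosome 1, 82586921 to 82722059, plus strand) are 72 bases apart. The starts of Col4a6 (chromosome X, 141165403 to 141474076, minus strand) and Col4a5 (chromosome X, 141475385 to 141689234, plus strand) are 1309 bases apart. Col4a1 and Col4a2 rose in d/d and Col4a4 fell, as described further on, and to show where these genes begin the RefSeq promoter windows (250 bases before to 50 after the start, GRCm38.p6) of these 3 genes are given 5′ to 3′ on the strand of the gene, at chr8:11312777-11313076 for Col4a1, chr8:11312555-11312854 for Col4a2 and chr1:82586800-82587099 for Col4a4. Capitals mark the CCAAT box, a GC box (GGGCGG) and the TATA box (TATAAA) on either strand, with no overlap between matches in these windows.
Col4a1: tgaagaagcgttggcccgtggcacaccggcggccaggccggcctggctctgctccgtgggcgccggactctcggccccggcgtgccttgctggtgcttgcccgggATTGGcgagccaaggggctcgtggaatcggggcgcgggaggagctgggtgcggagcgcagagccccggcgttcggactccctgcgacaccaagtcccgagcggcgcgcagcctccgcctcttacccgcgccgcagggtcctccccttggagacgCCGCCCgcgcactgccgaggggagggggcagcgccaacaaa
Col4a2: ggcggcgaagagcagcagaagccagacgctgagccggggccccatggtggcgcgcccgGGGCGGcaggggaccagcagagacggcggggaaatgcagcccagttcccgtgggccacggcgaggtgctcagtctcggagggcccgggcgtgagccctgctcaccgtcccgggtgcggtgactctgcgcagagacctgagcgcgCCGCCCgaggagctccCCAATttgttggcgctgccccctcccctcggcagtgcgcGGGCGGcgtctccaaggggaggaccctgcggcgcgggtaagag
Col4a4: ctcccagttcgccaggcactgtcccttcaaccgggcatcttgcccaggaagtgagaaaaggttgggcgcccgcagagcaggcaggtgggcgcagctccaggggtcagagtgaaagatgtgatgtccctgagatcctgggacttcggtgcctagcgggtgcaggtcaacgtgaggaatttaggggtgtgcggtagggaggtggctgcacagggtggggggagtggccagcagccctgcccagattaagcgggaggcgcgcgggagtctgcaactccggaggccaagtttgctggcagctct
The Col4a1 window held 1 CCAAT and 1 GGGCGG, the Col4a2 window 1 CCAAT and 3 GGGCGG, and the Col4a4 window 0 of either, and none of the 3 windows held TATAAA. The Col4a1 and Col4a2 windows share 78 bases, read from opposite strands, which hold 1 GGGCGG. Across 38 windows of 35 collagen genes in the RefSeq table, 60.5% held GGGCGG, 34.2% held CCAAT and 13.2% held TATAAA, against 35.7%, 37.4% and 13.6% of all 32851 windows. The full set was not selected by gene type, so it is not a matched set for the collagen genes.

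Collagen mRNA was abundant in every library and a few genes held most of it. Col3a1, whose product forms type III fibrils, had the highest level, followed by Col1a1 and Col1a2, the type I chains. At the other end Col9a1 was listed at 0 in all 6 libraries, Col19a1 in 5 of them, and Col2a1, the cartilage fibril gene, did not exceed 0.0773 FPKM. The 44 genes summed to 2930, 4148 and 4388 FPKM in the d/d libraries, which was 0.390%, 0.659% and 0.603% of all FPKM there. In the f/f libraries they summed to 3136, 3087 and 3238 FPKM, or 0.533%, 0.509% and 0.499%. The f/f sums lay close together, and d/d replicate 1 lay below them while the other d/d libraries lay above.

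**Figure D1:**
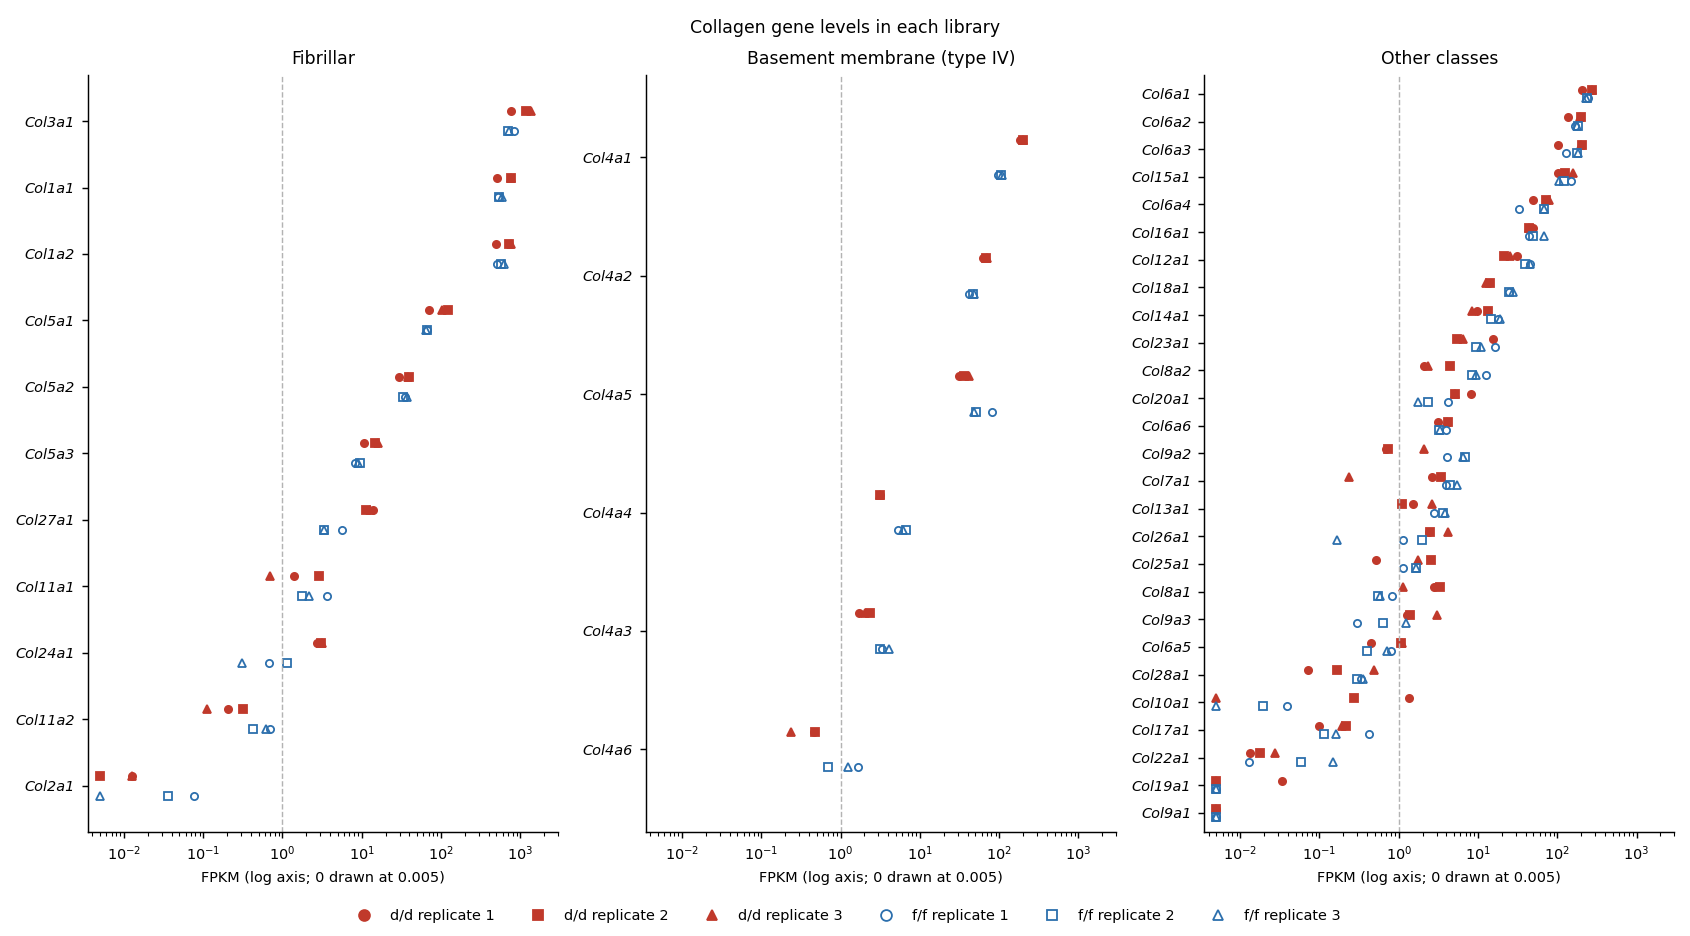
FPKM of all 44 collagen genes in each library on a log axis, by class and ordered by mean level, with d/d libraries as filled red points and f/f libraries as open blue points and the dashed line at the filter of 1 FPKM. The red points of Col4a1 and Col4a2 lie right of the f/f points and those of Col4a3 to Col4a6 lie left of them, while the points of Col1a1, Col1a2, Col3a1 and the type VI genes Col6a1 to Col6a3 interleave.

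Library d/d replicate 1 stood apart in its collagen genes. Among the 34 collagen genes with a mean of at least 1 FPKM, it was the lowest d/d library for 22 (64.7%), including 7 of 9 fibrillar and 5 of 5 type VI genes, whereas it was the lowest d/d library for 32.7% of all 15438 features tested. Summed smooth muscle markers were at 4303, 2635 and 3470 FPKM in the d/d libraries, highest in replicate 1, and at 2109, 4978 and 5098 FPKM in the f/f libraries, lowest in replicate 1. Among them Des was lower in d/d (2.57-fold, limma adjusted p = 0.0385), while Myh11, Acta2, Tagln, Cnn1 and Actg2 overlapped between the groups. Stromal markers (Pdgfra, Dcn, Lum, Dpt, Mfap5 and Pi16) summed to 1046, 1302 and 1431 FPKM in d/d and to 1480, 1198 and 1259 FPKM in f/f, with d/d replicate 1 again lowest. Most of that sum was Dcn, and the single markers went both ways: Lum and Mfap5 were higher in d/d (1.74-fold and 2.10-fold, limma adjusted p of 0.0493 and 0.0142), and Pdgfra and Pi16 lower (1.87-fold and 2.45-fold, 0.0206 and 0.0200). The uterine-end markers Hoxa10 and Hoxa11 summed to 4.24, 10.1 and 13.2 FPKM in d/d and to 3.68, 27.6 and 25.9 FPKM in f/f, so that replicate 1 was lowest in each group. Mitochondrial genes took 6.50%, 6.76% and 9.70% of FPKM in d/d and 4.47%, 5.70% and 3.61% in f/f, and all 9 collagen calls given below held when libraries were scaled to nuclear protein-coding genes. The part the marker differences play in the collagen values was not tested. In whole-tissue RNA, fewer cells of a type and less RNA per cell cannot be told apart.

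To ask which collagen genes differed between the genotypes, the 34 genes were read from a fit over all 15438 features with a mean of at least 1 FPKM (limma on log2(FPKM + 1), d/d minus f/f, two-sided, Benjamini-Hochberg adjusted p under 0.05). Of the 34, 4 were higher in d/d (Col4a1, Col4a2, Col27a1 and Col24a1) and 5 were lower (Col4a4, Col18a1, Col12a1, Col8a2 and Col9a2), which is 26.5% called against 11.0% of all features. Higher calls made up 6.04% and lower calls 4.97% of all features. In 20 of the 34 genes the 2 groups did not overlap (35.6% of all features), with d/d above f/f in 10 (18.1% of all features) and below it in 10 (17.4%). The median log2 change over the 34 was 0.01, against -0.01 over all features, and with 1 library left out it ran from -0.081 to 0.19 over the collagen genes that then reached the filter. Called genes lay in every class: 2 of 9 fibrillar genes tested were higher and 0 lower, 2 of 5 type IV genes were higher and 1 lower, and 0 of 20 others were higher and 4 lower. The class medians were 0.50, -0.58 and -0.01. Col24a1, Col8a1 and Col9a3 reached the filter only through their d/d level. Without them, a count added after the values were seen, 3 of 31 collagen genes were higher and 5 lower (5.90% and 4.58% of the 14572 features that reached 1 FPKM in both groups), with 1 of 8 fibrillar genes higher, and d/d lay above f/f in 7 and below it in 10 (17.8% and 16.8% of those features). Over these 31 genes the class medians were 0.40 (fibrillar), -0.58 (type IV) and -0.12 (others). Of the 10 genes under the filter (Col2a1, Col11a2, Col4a6, Col6a5, Col9a1, Col10a1, Col17a1, Col19a1, Col22a1 and Col28a1), Col4a6 and Col11a2 had values that did not overlap between the groups.

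**Figure D2:**
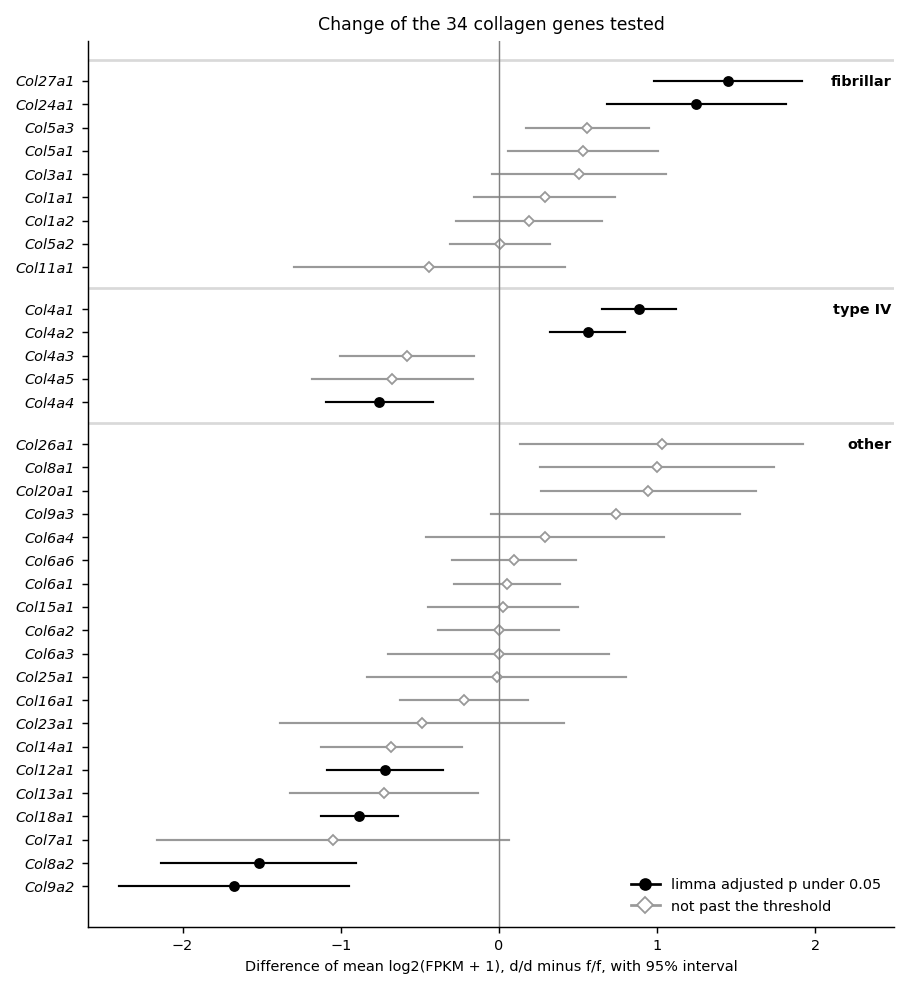
Log2 change of the 34 collagen genes tested, d/d minus f/f on the log2(FPKM + 1) scale, with 95% intervals from limma; black circles passed the threshold over all features and grey diamonds did not. Within type IV, Col4a1 (0.88) and Col4a2 (0.56) lie right of 0 and Col4a3, Col4a5 and Col4a4 (-0.76) lie left of it, and among the other classes the 4 black circles are all on the left.

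Within type IV, the pair of genes that make the common trimer rose, and the other 4 had lower values in every d/d library than in any f/f library, 1 of them past the threshold. Col4a1 was at 181, 197 and 201 FPKM in the d/d libraries, against 97.6, 107 and 109 FPKM in the f/f libraries. Every d/d value was far above every f/f value, at a mean of 193 ± 10.6 FPKM in d/d and 104 ± 5.89 FPKM in f/f (SD, n = 3 each), 1.85-fold higher (log2 change 0.88, SE 0.10, limma adjusted p = 0.00727). Col4a2 was at 63.0, 68.5 and 70.6 FPKM in d/d, against 41.8, 46.2 and 48.3 FPKM in f/f. It rose 1.48-fold (log2 change 0.56, SE 0.10, limma adjusted p = 0.0202), again without overlap. The Col4a1 call held under each of the 14 alternative settings, at adjusted p of 0.0430 or lower, whereas the Col4a2 call was lost when replicate 2 or 3 of f/f was omitted (limma adjusted p of 0.0805 and 0.0546), or replicate 2 or 3 of d/d (0.0683 and 0.0651).

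The 2 chains of the common trimer did not rise equally. The ratio of Col4a1 to Col4a2 FPKM was 2.88, 2.88 and 2.85 in the d/d libraries and 2.34, 2.31 and 2.25 in the f/f libraries. It was the steadiest of the chain ratios within d/d, and its mean was 2.87 ± 0.0152 in d/d and 2.30 ± 0.0450 in f/f (SD, n = 3 each). The ratio does not depend on how the libraries are scaled against each other, and no test was run on it.

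Col4a4, a chain of the trimer best known from the kidney filter, the cochlea and the lung, was nearly constant in d/d, at 3.16, 3.13 and 3.18 FPKM, against 5.29, 6.73 and 6.13 FPKM in f/f. It fell, 1.91-fold lower in d/d (log2 change -0.76, SE 0.14, limma adjusted p = 0.0231), and the call was lost without any single library other than f/f replicate 1 (limma adjusted p from 0.0613 to 0.106). Its head-to-head neighbour Col4a3 was at 1.69, 2.34 and 2.01 FPKM in d/d and at 3.30, 3.17 and 4.05 FPKM in f/f, with no overlap but short of the threshold (log2 change -0.58, limma adjusted p = 0.0835, and 0.0486 with no variance trend). Col4a5, which joins both of the less common trimers, was at 31.5, 36.3 and 41.5 FPKM in d/d and at 80.8, 50.4 and 48.6 FPKM in f/f (log2 change -0.67, limma adjusted p = 0.0917, 95% interval -1.18 to -0.17). All 3 d/d values lay under the f/f values, and the f/f spread came mainly from replicate 1. That library was also the highest of the 6 for summed multiciliated cell markers (24.2, 115 and 74.5 FPKM in d/d against 222, 110 and 69.8 FPKM in f/f) and adipocyte markers (0, 1.84 and 0.535 FPKM in d/d against 11.7, 0.585 and 1.67 FPKM in f/f), and their part in the Col4a5 values was not tested. Col4a6 had 0.460, 0.479 and 0.240 FPKM in d/d and 1.65, 0.684 and 1.23 FPKM in f/f, under the filter and so untested.

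Summed over chains, Col4a1 and Col4a2 came to 261 ± 14.5 FPKM in d/d and 150 ± 9.18 FPKM in f/f (SD, n = 3 each), 1.74-fold higher, while Col4a3 to Col4a6 came to 42.0 ± 5.10 FPKM in d/d and 70.7 ± 17.6 FPKM in f/f, 1.68-fold lower. Neither sum overlapped between the groups. Blood vessels are a rich source of Col4a1 and Col4a2, and the summed endothelial markers (Pecam1, Cdh5, Kdr, Tek, Vwf and Emcn) were at 243, 182 and 211 FPKM in d/d and at 153, 164 and 176 FPKM in f/f. Of these 6 markers 1 rose, Vwf, at 80.1, 60.4 and 78.4 FPKM in d/d and 37.9, 32.3 and 30.5 FPKM in f/f. The rest of that sum, Pecam1, Cdh5, Kdr, Tek and Emcn, overlapped between the groups gene by gene. The endothelial adhesion gene Pecam1 was at 54.6, 43.3 and 44.5 FPKM in d/d and at 46.9, 46.1 and 50.7 FPKM in f/f. Of 5 pericyte markers, which mark the wall of small vessels, Rgs5 and Abcc9 were lower in d/d (1.47-fold and 1.74-fold, limma adjusted p of 0.0458 and 0.0142), and the 5 summed to 166, 124 and 125 FPKM in d/d and to 140.5, 151 and 178 FPKM in f/f. Kcnj8 had the higher mean in d/d (1.41-fold, with overlap) and Cspg4 and Notch3 the lower. None of these passed (limma adjusted p of 0.247, 0.313 and 0.156). Of 6 epithelial markers, Epcam and Cdh1 were higher in d/d (1.52-fold and 1.37-fold, limma adjusted p of 0.0277 and 0.0394) and Krt18 lower (1.46-fold, 0.0345), and the 6 summed to 4861, 3183 and 5627 FPKM in d/d and to 6300, 4796 and 5575 FPKM in f/f. Most of the epithelial sum was 1 gene, Ovgp1, at 4329, 2651 and 5059 FPKM in d/d and 5690, 4264 and 5025 FPKM in f/f. The part of vessel or epithelial content in the type IV values was not tested.

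**Figure D3:**
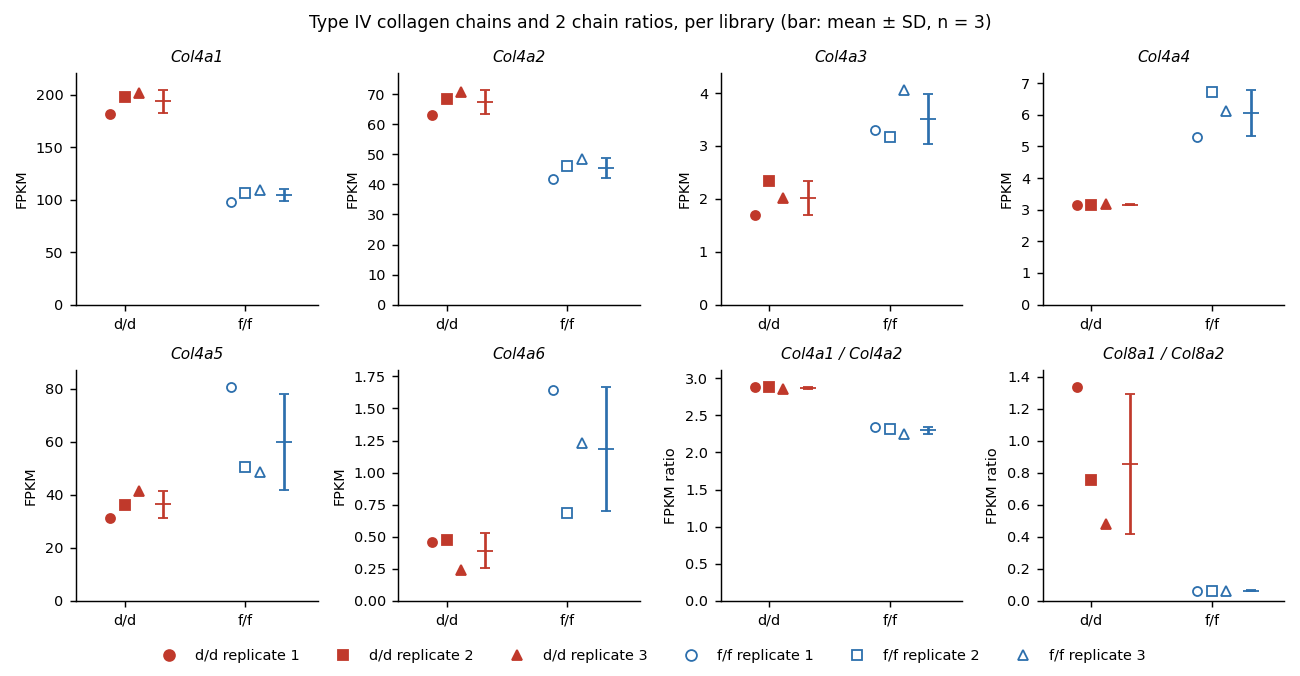
FPKM of each type IV chain and the FPKM ratios Col4a1/Col4a2 and Col8a1/Col8a2 in each library, d/d left in red and f/f right in blue, with bars for mean ± SD (n = 3). The d/d points lie above the f/f points for Col4a1, Col4a2 and both ratios and below them for Col4a3 to Col4a6, and the 3 d/d values of the Col4a1/Col4a2 ratio fall between 2.85 and 2.88.

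Among the fibrillar genes, the 2 that passed were the minor fibrillar chains Col27a1 and Col24a1. Col27a1, best known from cartilage, was at 13.7, 11.3 and 12.8 FPKM in d/d, against 5.58, 3.36 and 3.30 FPKM in f/f. No f/f value reached any d/d value, and the mean was 3.09-fold higher in d/d (log2 change 1.45, SE 0.20, limma adjusted p = 0.0105), and without f/f replicate 2 the adjusted p was 0.0503. Col24a1, best known from developing bone and cornea, was at 2.76, 3.03 and 3.12 FPKM in d/d, against 0.668, 1.13 and 0.313 FPKM in f/f, 4.22-fold higher (log2 change 1.25, SE 0.24, limma adjusted p = 0.0236). The f/f level of Col24a1 lay under the 1 FPKM filter, and its call was lost without any single library other than f/f replicate 1 (limma adjusted p from 0.0537 to 0.0803). Even its lowest library held about 37 fragments, taking the longest annotated transcript. The genes lie on different chromosomes, Col27a1 on chromosome 4 (63214004 to 63334991, plus strand) and Col24a1 on chromosome 3 (145292472 to 145552011, plus strand).

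The abundant stromal fibril genes did not pass. Col3a1 was at 769, 1165 and 1346 FPKM in d/d and at 843, 699 and 717 FPKM in f/f, with d/d replicate 1 inside the f/f range (log2 change 0.50, limma adjusted p = 0.200, 95% interval -0.05 to 1.05). Col1a1 was at 515, 758 and 765 FPKM in d/d and at 517, 534 and 593 FPKM in f/f (log2 change 0.29, limma adjusted p = 0.346, 95% interval -0.16 to 0.73). Col1a2 was at 496, 719 and 757 FPKM in d/d and at 516, 568 and 621 FPKM in f/f (log2 change 0.19, limma adjusted p = 0.549, 95% interval -0.27 to 0.65). For all 3 genes d/d replicate 1 was at or near the f/f level and d/d replicates 2 and 3 were above every f/f library. Without d/d replicate 1 the log2 changes were 0.74, 0.48 and 0.38, still short of the threshold (limma adjusted p of 0.0765, 0.125 and 0.208). All 3 of the intervals with d/d replicate 1 included held 0.

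The type V genes, whose chains set fibril diameter from within type I fibrils, differed among themselves. Col5a1 was at 70.3, 124 and 102 FPKM in d/d and at 67.0, 66.6 and 65.3 FPKM in f/f, and Col5a3 at 10.7, 14.6 and 15.9 FPKM in d/d and 8.20, 9.41 and 9.07 FPKM in f/f. Neither overlapped between the groups and neither passed (limma adjusted p of 0.137 and 0.0740). Both passed without d/d replicate 1 (0.0339 and 0.0397). Col5a2 overlapped, at 35.4 ± 5.29 FPKM in d/d and 35.0 ± 2.02 FPKM in f/f (SD, n = 3 each), with a log2 change of 0.01 and a 95% interval of -0.31 to 0.32. The Col5a1 to Col5a2 ratio did not overlap either, at 2.40, 3.19 and 2.69, against 1.92, 2.02 and 1.77 in f/f. Col11a1, a fibrillar chain related to type V, was at 1.40, 2.92 and 0.691 FPKM in d/d and at 3.61, 1.75 and 2.15 FPKM in f/f, with overlapping groups.

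The ratio of the type I chains was close to 1 in every library. It was 1.04, 1.05 and 1.01 in d/d and 1.00, 0.940 and 0.954 in f/f for Col1a1 over Col1a2, so the groups did not overlap although they differed by 1.07-fold. The Col3a1 to Col1a1 ratio ran from 1.49 to 1.76 in d/d and from 1.21 to 1.63 in f/f. Fibrillar genes together took 65.1%, 68.4% and 69.3% of collagen FPKM in d/d and 63.7%, 62.1% and 63.3% in f/f, with no overlap. Their summed FPKM was 2596 ± 604 in d/d and 1987 ± 66.8 in f/f (SD, n = 3 each), with d/d replicate 1 (1909) below all f/f libraries.

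**Figure D4:**
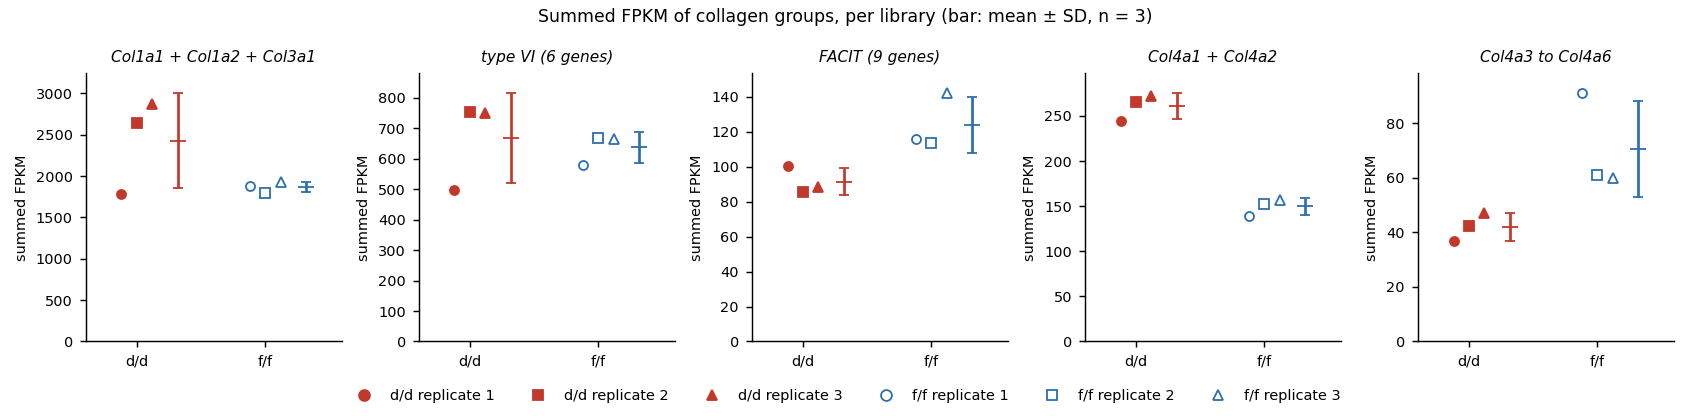
Summed FPKM of 5 collagen groups in each library, d/d left in red and f/f right in blue, with bars for mean ± SD (n = 3). Replicate 1 of d/d is the lowest point of the types I and III sum and of the type VI sum, and the groups separate for the FACIT genes, for Col4a1 with Col4a2 and for Col4a3 to Col4a6.

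Outside the fibrillar and type IV classes every call was a fall. Col18a1, the multiplexin whose C-terminal fragment is endostatin, was at 13.7, 14.2 and 12.6 FPKM in d/d, against 25.0, 24.6 and 27.6 FPKM in f/f. Both groups were tight, and the mean was 1.91-fold lower in d/d (log2 change -0.88, SE 0.10, limma adjusted p = 0.00825), with the call kept whichever single library was left out (limma adjusted p of 0.0440 or lower). RefSeq lists 2 starts for this gene, and a value per gene does not separate them. Its only relative in the class, Col15a1, was at 102, 123 and 157 FPKM in d/d and at 150, 120 and 104 FPKM in f/f, with overlapping groups (log2 change 0.02, 95% interval -0.45 to 0.50).

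Col12a1, a FACIT collagen that coats type I fibrils, was at 31.4, 21.1 and 25.3 FPKM in d/d, against 45.0, 39.4 and 44.6 FPKM in f/f. It fell 1.66-fold without overlap (log2 change -0.72, SE 0.15, limma adjusted p = 0.0332), a call lost without any single library other than d/d replicate 1 (limma adjusted p from 0.0613 to 0.103). Col14a1, the FACIT gene most like Col12a1, was at 9.67, 13.5 and 8.36 FPKM in d/d and 18.0, 14.8 and 18.8 FPKM in f/f, lower in every d/d library but short of the threshold (limma adjusted p = 0.0640, and 0.0466 without d/d replicate 2). Col16a1 was at 49.0, 43.7 and 44.4 FPKM in d/d and 44.4, 49.3 and 69.0 FPKM in f/f, with overlap. Summed FPKM of the 9 FACIT genes was 91.4 ± 7.74 in d/d and 124 ± 15.9 in f/f (SD, n = 3 each). Col20a1, a less studied FACIT gene, was at 8.08, 5.19 and 5.14 FPKM in d/d and 4.23, 2.38 and 1.74 FPKM in f/f, with d/d above f/f but short of the threshold (limma adjusted p = 0.0810, and 0.0310 without f/f replicate 1).

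Col9a2 had the steepest fall of the family. It was at 0.695, 0.742 and 2.09 FPKM in d/d, against 4.05, 6.87 and 6.48 FPKM in f/f, 4.93-fold lower (log2 change -1.67, SE 0.31, limma adjusted p = 0.0209). Omitting replicate 2 or 3 of f/f ended the call (limma adjusted p of 0.0873 and 0.0774), as did omitting replicate 1 or 2 of d/d (0.0592 and 0.0698). Type IX collagen, a cartilage collagen, is assembled from the products of Col9a1, Col9a2 and Col9a3, and Col9a1 was listed at 0 in all 6 libraries. Col9a3 was at 1.28, 1.39 and 3.06 FPKM in d/d and 0.301, 0.640 and 1.24 FPKM in f/f, with d/d above f/f (limma adjusted p = 0.193). Of the cartilage markers, Acan and Matn1 did not exceed 0.0760 FPKM in any library, whereas Sox9, a transcription factor that other tissues also use, was at 7.45, 11.6 and 12.05 FPKM in d/d and 13.7, 3.98 and 4.21 FPKM in f/f.

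The type VIII genes, which encode the short-chain network collagen of vessel walls and of the corneal basement membrane, differed in opposite directions, and 1 of them passed. Col8a2 was at 2.10, 4.43 and 2.35 FPKM in d/d, against 12.6, 8.37 and 9.36 FPKM in f/f, 3.42-fold lower (log2 change -1.52, SE 0.26, limma adjusted p = 0.0175). Omitting replicate 2 or 3 of f/f ended the call (limma adjusted p of 0.0566 and 0.0601), as did omitting replicate 3 of d/d (0.0631). Col8a1 was at 2.80, 3.34 and 1.13 FPKM in d/d and at 0.820, 0.544 and 0.577 FPKM in f/f, higher in every d/d library without passing (limma adjusted p = 0.0880, and 0.0478 without d/d replicate 3). The Col8a1 to Col8a2 ratio was 1.34, 0.753 and 0.482 in d/d, and 0.0648, 0.0649 and 0.0616 in f/f, where it was nearly constant, so that the mean ratio was 13.4-fold higher in d/d.

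Type VI collagen, the beaded filament around cells and fibrils, had 0 calls among 5 genes tested in limma (all features: 11.0%). At an unadjusted limma p under 0.05 it also had 0 (all features: 4562 of 15438). With 5 genes these counts cannot set the class apart from all features. Col6a1 was at 204, 273 and 271 FPKM in d/d and at 244, 238 and 233 FPKM in f/f (log2 change 0.05, limma adjusted p = 0.837, 95% interval -0.28 to 0.39). Col6a2 was at 137, 198 and 195 FPKM in d/d and at 166, 182 and 176 FPKM in f/f (limma adjusted p = 0.998). Col6a3 was at 102, 206 and 201 FPKM in d/d and at 130, 176 and 184 FPKM in f/f (limma adjusted p = 0.997). In all 3 genes d/d replicate 1 was the lowest of the 6 libraries. The Col6a3 to Col6a1 ratio was low in replicate 1 of each genotype, at 0.498 against 0.753 and 0.740 in d/d and at 0.534 against 0.737 and 0.793 in f/f. Among the later-found type VI chains, Col6a4 averaged 66.8 ± 15.3 FPKM in d/d and 56.4 ± 20.4 FPKM in f/f, and Col6a6 averaged 3.80 ± 0.557 FPKM in d/d and 3.48 ± 0.401 FPKM in f/f (SD, n = 3 each).

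The membrane-spanning and anchoring collagens did not exceed 16.3 FPKM in any library and showed no call (all features: 11.0% called). Col7a1, the anchoring fibril gene, was at 2.59, 3.40 and 0.234 FPKM in d/d and at 3.98, 4.39 and 5.43 FPKM in f/f, with d/d replicate 3 far under the rest (limma adjusted p = 0.190). Col13a1, a transmembrane collagen, was at 1.51, 1.09 and 2.61 FPKM in d/d and at 2.82, 3.66 and 3.83 FPKM in f/f (limma adjusted p = 0.110). Col23a1, of the same class, was at 15.5, 5.42 and 6.38 FPKM in d/d and at 16.3, 9.51 and 10.8 FPKM in f/f, highest in replicate 1 of each genotype. Col25a1 overlapped between the groups. Col26a1, of neither class, was at 2.41, 2.51 and 4.15 FPKM in d/d and 1.12, 1.94 and 0.166 FPKM in f/f (limma adjusted p = 0.128). Although short of the threshold, Col7a1, Col13a1 and Col26a1 did not overlap between the groups. The d/d values were lower for Col7a1 and Col13a1 and higher for Col26a1.

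Collagen chains are hydroxylated, folded, exported, trimmed and cross-linked by dedicated proteins, then bound by receptors and broken down by proteases. Of 53 such genes listed, 46 were tested, and 8 were higher and 2 lower in d/d (all features: 6.04% higher and 4.97% lower). The breakdown group held 3 of the rises among its 5 genes tested. Ctsk, a lysosomal protease that cleaves within the collagen helix, was at 112, 156 and 180 FPKM in d/d, against 22.3, 30.0 and 32.6 FPKM in f/f. Every d/d library was far above every f/f library, and the mean was 5.29-fold higher (log2 change 2.35, SE 0.21, limma adjusted p = 0.00393). Mmp14, the membrane-bound collagenase that activates Mmp2, was at 233, 293 and 286 FPKM in d/d, against 100.4, 103 and 106 FPKM in f/f, 2.63-fold higher (limma adjusted p = 0.00374). Mmp2, a gelatinase that also cleaves type IV collagen, was at 198, 215 and 234 FPKM in d/d, against 98.3, 56.1 and 64.7 FPKM in f/f, 2.95-fold higher (limma adjusted p = 0.0101). These 3 calls held without any single library. Of the others tested there, the neutrophil collagenase Mmp8 was at 1.68, 2.27 and 3.53 FPKM in d/d and 12.8, 10.4 and 3.69 FPKM in f/f (limma adjusted p = 0.0798, and 0.0351 without f/f replicate 3), and the gelatinase Mmp9 overlapped between the groups.

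Ctsk and Lair1 are expressed by macrophages, among other cells, and the summed macrophage markers (Cd68, Adgre1, Csf1r, Lyz2 and C1qb), all 5 of which rose, were at 813, 903 and 691 FPKM in d/d and at 285, 259 and 230 FPKM in f/f. Lair1, the inhibitory collagen receptor of leukocytes, was at 12.8, 16.6 and 13.9 FPKM in d/d, against 5.44, 4.05 and 3.64 FPKM in f/f, 3.29-fold higher (log2 change 1.53, SE 0.17, limma adjusted p = 0.00727). It was the only 1 of 8 receptor genes tested to pass, near the 11.0% of all features called. The discoidin domain receptors Ddr1 and Ddr2, the integrin chains Itga1, Itga2, Itga10 and Itgb1 and the endocytic receptor Mrc2 did not pass, although Mrc2 did with TMM (trimmed-mean) scaling of the libraries (limma adjusted p = 0.0472) and with quantile scaling (0.0436). The part of macrophage content in the Ctsk, Lair1, Mmp2 and Mmp14 values was not tested.

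Of 18 folding and hydroxylation genes tested, 2 rose and 2 fell (all features: 6.04% higher and 4.97% lower). The 2 main prolyl hydroxylase subunits went in opposite directions. P4ha1 was at 49.6, 37.6 and 38.6 FPKM in d/d, against 27.2, 27.6 and 26.5 FPKM in f/f, 1.54-fold higher (limma adjusted p = 0.0322). P4ha2 was at 13.3, 10.4 and 11.3 FPKM in d/d, against 21.0, 34.4 and 38.4 FPKM in f/f, 2.68-fold lower (log2 change -1.31, SE 0.23, limma adjusted p = 0.0185). The lysyl hydroxylase Plod1 rose 1.49-fold, at 44.2 ± 2.97 FPKM in d/d and 29.7 ± 3.88 FPKM in f/f (SD, n = 3 each, limma adjusted p = 0.0367). Tmem38b, an endoplasmic reticulum cation channel needed for collagen folding, was at 10.2 ± 1.71 FPKM in d/d and 16.2 ± 1.63 FPKM in f/f (SD, n = 3 each, limma adjusted p = 0.0476). The calls of P4ha1 and Tmem38b were lost without any single library (limma adjusted p from 0.0523 to 0.107 and from 0.0686 to 0.138), and that of Plod1 without any other than f/f replicate 1 (from 0.0758 to 0.101). With all 6 libraries, Plod1 and Tmem38b also missed the threshold with no variance trend (limma adjusted p of 0.0520 and 0.0566), and Tmem38b with protein-coding scaling (0.0509). P4ha2 lost its call when replicate 2 or 3 of f/f (0.0764 and 0.0605) or of d/d (0.0671 and 0.0641) was omitted. The collagen chaperone Serpinh1 was at 436, 368 and 365 FPKM in d/d and 255, 402 and 384 FPKM in f/f, with overlap.

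Loxl1, a lysyl oxidase that cross-links matrix fibres, was at 58.2, 64.9 and 55.0 FPKM in d/d, against 34.7, 26.0 and 29.9 FPKM in f/f, 1.97-fold higher (log2 change 0.96, SE 0.13, limma adjusted p = 0.0106). It was the only 1 of 5 cross-linking genes to pass (all features: 11.0%), though Loxl2 passed without d/d replicate 1, at a limma adjusted p of 0.0342. The Loxl1 call was kept whichever single library was left out. Lox itself was at 26.1, 32.6 and 24.7 FPKM in d/d and 31.3, 15.8 and 20.8 FPKM in f/f. Larp6, which binds the stem-loop at the start of type I and III collagen mRNAs, was at 6.64, 4.05 and 5.18 FPKM in d/d, against 2.37, 1.62 and 2.92 FPKM in f/f, 2.30-fold higher. Its adjusted p of 0.0489 in limma lay just inside the threshold and missed it without any single library (from 0.0712 to 0.146), with quantile scaling (0.0577) and with protein-coding scaling (0.0509). The 4 export genes and the 5 propeptide-removal genes tested held 0 calls at an adjusted p under 0.05 in limma (all features: 11.0%). For so few genes, that does not show these steps to be unchanged. Mia3, the cargo receptor for procollagen, was at 69.4 ± 2.08 FPKM in d/d and 66.1 ± 4.97 FPKM in f/f (SD, n = 3 each). Pcolce, the enhancer of C-propeptide removal, was at 110, 73.8 and 75.6 FPKM in d/d and 45.4, 67.9 and 63.6 FPKM in f/f, without overlap and short of the threshold (limma adjusted p = 0.147).

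**Figure D5:**
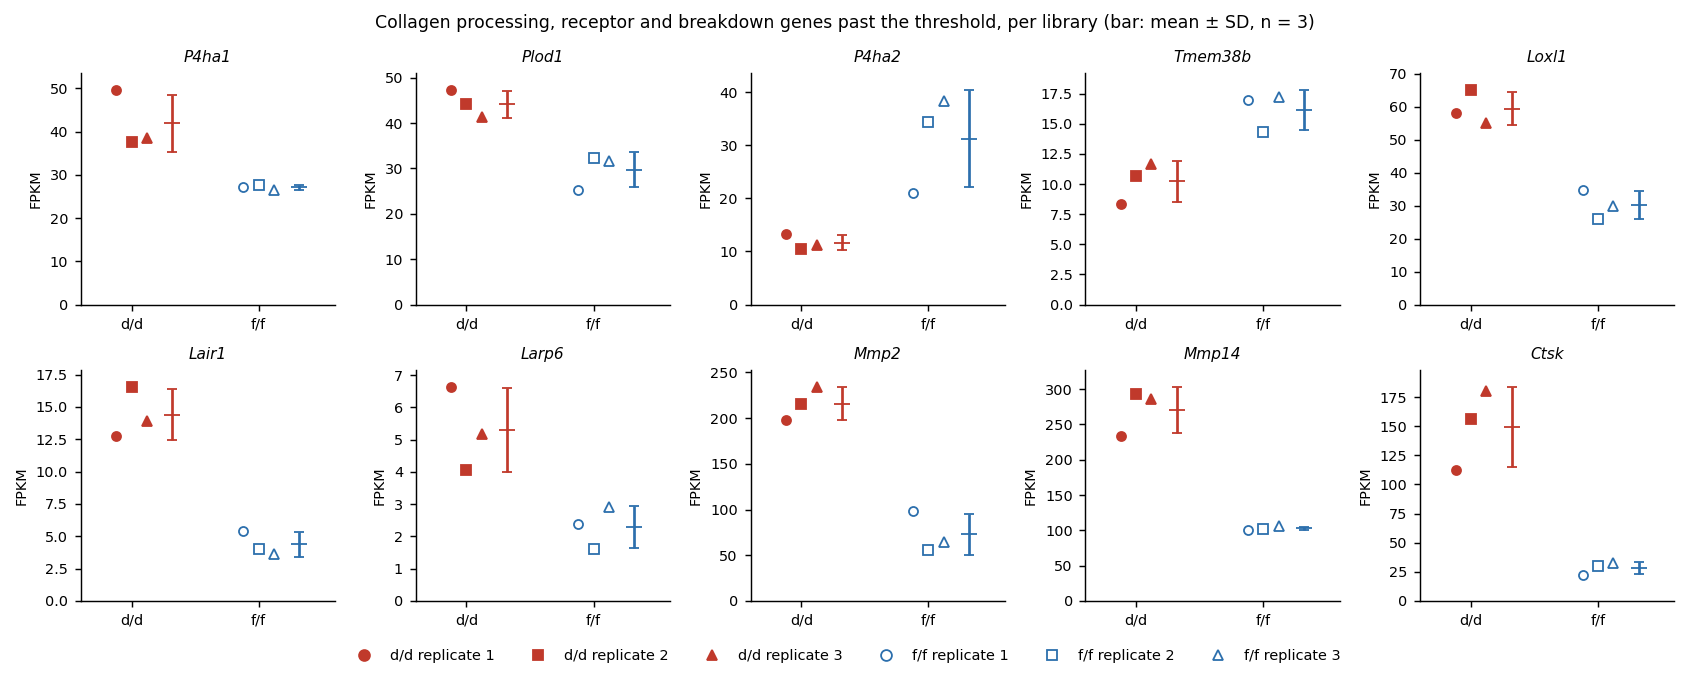
FPKM of the 10 collagen processing, receptor, breakdown and mRNA-binding genes that passed the threshold, in each library, d/d left in red and f/f right in blue, with bars for mean ± SD (n = 3). The d/d points lie above the f/f points for 8 genes and below them for P4ha2 and Tmem38b, and Ctsk has the largest fold between group means, at 149.5 ± 34.3 FPKM in d/d and 28.3 ± 5.38 FPKM in f/f.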

How the data were processed

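RNA-seq tables for 6 whole-oviduct libraries (3 d/d, 3 f/f) were used, with groups and replicate numbers from the labels' titles. TRIzol RNA and TruSeq libraries are given per the labels' protocols. The authors deposited 1 value per Ensembl gene and library, read as FPKM from the named Cufflinks 2.2.1 and from decimals with unequal totals (588802 to 751618). Per the submitters' processing notes, HISAT2 2.2.1 and 2 builds (mm9, mm10) are named as well, with no role stated. The sources used here name no annotation or strand setting, and reads of overlapping and antisense genes cannot be told apart. The overlap of Col4a1 and Col4a2 is 22 bases. Col20a1 shares 79 exon bases on the same strand with BX649560.1, which averaged 3.03 FPKM. No 2 libraries held identical values (0 pairs).

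Steps of low FPKM values in single-transcript genes over 1500 nt implied about 16700000 to 17800000 fragments per library. FPKM of genes with several transcripts give no exact counts, so the fragments given for Col24a1 are an estimate from its longest transcript. Where several rows carried the same symbol (114 symbols), their values were added. The fit took features whose mean reached 1 FPKM, on the log2(FPKM + 1) scale, in limma 3.58.1 and R 4.3.3 (variance trend, genotype only). Log2 changes understate low genes, and folds are ratios of group mean FPKM. Data were simulated 10 times with the spread of these 15438 features, independent noise and 200 genes changed. There the fit recovered 4.78%, 42.2% and 79.5% of genes changed by 0.5, 1 and 2 on the log2 scale, with 5.03% false calls. The real fit called 1701 features, so its recovery may differ. Sums, ratios and medians carry no test.

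Coordinates are GENCODE M21 (GRCm38), and 99.5% of feature identifiers matched. Promoter windows are from RefSeq (GRCm38.p6), with 35 of 44 genes matched. The collagen genes, classes and lists were chosen with earlier results of these data known. Given in full were the collagen genes past the threshold and the 3 most abundant of each class, and of the processing list those past the threshold or the most abundant gene of a role without one. Other genes named were chosen after their values were seen. Alternatives were a pseudocount of 0.1, no filter, quantile and trimmed-mean (TMM) scaling, scaling to nuclear protein-coding genes, no variance trend, a replicate block, other class membership, and leaving out each library or both replicates 1, with the filter then taken over the libraries kept.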

Additional observations from a re-analysis of the deposited data

How the results depend on the processing

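The direction of all 9 collagen calls was the same under the 14 alternative settings of the fit. All 9 calls were kept with a pseudocount of 0.1, quantile, TMM or protein-coding scaling and no variance trend. Without the filter 6 were kept (Col4a4, Col12a1 and Col9a2 were lost), and without both replicates 1, 7 (Col24a1 and Col8a2 were lost). Leaving out 1 library at a time, the number of collagen genes called higher ran from 1 to 5 and lower from 1 to 4, against 4 and 5. By class these ranges were 0 to 3 (fibrillar higher), 1 to 2 and 0 to 1 (type IV higher and lower), and 0 to 1 and 1 to 3 (others higher and lower). The processing list ran from 5 to 6 higher and from 0 to 1 lower, against 8 and 2. Over all features the count ran from 308 without f/f replicate 2 to 1795 without f/f replicate 1, against 1701, and these fits have fewer libraries. Without the filter, 0 type IV genes, 2 others and 2 collagen genes in all were lower, and the processing list had 5 higher (Ctsk, Mmp2, Mmp14, Lair1 and Loxl1) and 1 lower (P4ha2), with 1107 calls over all features. The type IV genes lower numbered 2 without a variance trend (Col4a3 added) and 2 with Col15a1, Col18a1 and Col7a1 counted as basement membrane (Col18a1 added). The processing list had 1 lower (P4ha2) with protein-coding scaling, without both replicates 1 and with no variance trend. Without both replicates 1, 1 other collagen was higher (Col20a1). There the type IV median log2 change was -0.34 against -0.58, and that of all 34 collagens 0.19 against 0.01. With 1 library left out these medians ran from -0.66 to -0.44 (type IV), from -0.081 to 0.19 (all) and from -0.18 to 0.17 (others, against -0.01), so the sign of the last 2 turned. The fibrillar median, 0.50, ran from 0.33 without d/d replicate 3 to 0.72 without d/d replicate 1, and was 0.29 with no filter and 0.30 with quantile scaling. Counting only genes that reached 1 FPKM in both groups, chosen after seeing the data, left 1 fibrillar gene higher (Col27a1). The causes were not tested.

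Equal replicate numbers did not deviate together (correlations across features of -0.22, -0.06 and 0.00 between d/d and f/f replicates 1, 2 and 3). Unequal numbers gave correlations from -0.28 to 0.28. With 3 libraries per group these values cannot show whether the numbers pair the libraries. With the replicate number as a block, 2 collagen genes were higher (Col4a1 and Col27a1, so 1 type IV and 1 fibrillar) and 0 lower, also 0 type IV and 0 others. The processing list then had 3 higher (Ctsk, Mmp14 and Lair1) and 0 lower, and all features 276 calls, a fit with fewer residual degrees of freedom. Summed class levels moved by less than 1 SD under TMM and protein-coding scaling. For libraries left out, that measure cannot decide, as its SD comes from the same 3 libraries per group. Without d/d replicate 1 the d/d over f/f fold of the other classes went from 0.98 to 1.07. That of the Col6a3 to Col6a1 ratio went from 0.965 to 1.09. Without d/d replicate 3 that of the Col4a5 to Col4a6 ratio went from 1.95 to 1.33. A 42.2% recovery of changes of 1 on simulated data, on the log2 scale, means that a missed threshold does not show a gene to be alike.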
